A study of Homo sapiens with 4 samples.

Results

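The carnitine shuttle and the core of mitochondrial fatty acid oxidation were represented by 10 genes, CPT1A, CPT2, ACADVL, ACADM, ACADS, HADHA, HADHB, HADH, ACAA2 and ETFDH, selected by their gene symbol in a count table of 12912 genes. All 10 symbols were present once and all 10 passed the filter on low counts. The cell line 786-O derives from a clear cell renal carcinoma and lacks functional VHL, the substrate recognition subunit of the ubiquitin ligase that degrades HIF-α. RNA-seq libraries were made from 786-O-Ctrl, whose genotype is VHL-null, and from 786-O-VHL, in which a retroviral vector expresses HA-tagged VHL, with 2 libraries per group. Cells of both groups carried a retroviral triple reporter of GFP, luciferase and thymidine kinase and were cultured in serum-supplemented RPMI medium. Each group is 1 subline, and nothing states that the libraries of a group came from separate cultures, so the tests measure the spread between these libraries, which may be technical.

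Long-chain fatty acids cannot cross the inner mitochondrial membrane as acyl-CoA. CPT1 on the outer membrane transfers the acyl group to carnitine, the carrier SLC25A20 exchanges acylcarnitine for carnitine, and CPT2 on the inner side restores acyl-CoA, which then passes repeatedly through dehydrogenation, hydration, a further dehydrogenation and thiolysis, losing an acetyl-CoA in each round. Clear cell renal carcinoma is known for its lipid droplets, and CPT1A has been described as a gene repressed by HIF in these tumors.

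Depth was 22141263 counts for the deeper of the 786-O-Ctrl libraries and 15714166 for the shallower, while 786-O-VHL had 2807779 (replicate 1) and 16114120 (replicate 2). Levels are given as CPM, the counts of a gene scaled to a common library total with TMM factors, and a count of 0 would allow up to between 0.142 and 1.02 CPM in a library, counting error only. The libraries of each group differed by more than counting noise, with a chi-square per degree of freedom of 2.22 for 786-O-Ctrl and 2.72 for 786-O-VHL. VHL mRNA (ENSG00000134086.7) was at 42.9 and 43.9 CPM in 786-O-Ctrl and at 178 and 163 CPM in 786-O-VHL, in the direction of the labels. Mitochondrially encoded genes took 2.46% and 2.62% of the counts in 786-O-Ctrl, against 1.98% and 1.79% in 786-O-VHL. All 9 markers chosen for the renal lineage of the line, VIM and CDH2 among them, had counts. Of these, 1 was called higher in 786-O-VHL, 6 lower and 2 neither, where 31.9% of all genes were called lower. VIM had the largest fall, with a log2 fold change of -1.21, and PAX8 had one of -0.90. EPAS1, which encodes HIF-2α, was the marker whose mRNA rose, by 1.37 on the log2 scale. For the protein, the study reported by Western blot that VHL expression diminished HIF-2α. The part of these marker changes in the results was not tested. Of 9 markers of leukocytes, endothelium, hepatocytes and fibroblasts, 3 had counts, and their summed level was between 7.38 and 9.84 CPM in every library.

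The 250 bases before the start of the canonical transcript are shown for the genes with the largest rise and the largest fall, CPT1A and HADH, and for the region that HADHA and HADHB share. HADHA and HADHB, which encode the α and β subunits of a single enzyme complex, are transcribed away from each other on chromosome 2, with 306 bases between their starts, so the HADHB sequence is at the same time most of the HADHA promoter. Sequences are from GRCh37, 5′ to 3′ on the strand of the named gene, and capitals mark a GCGTG.
CPT1A promoter, chr11:68609385-68609634, minus strand: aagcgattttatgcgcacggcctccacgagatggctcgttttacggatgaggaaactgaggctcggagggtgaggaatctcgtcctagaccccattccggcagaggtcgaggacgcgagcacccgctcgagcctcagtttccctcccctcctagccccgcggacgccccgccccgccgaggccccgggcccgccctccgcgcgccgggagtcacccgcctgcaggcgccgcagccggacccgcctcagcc
HADH promoter, chr4:108910795-108911044, plus strand: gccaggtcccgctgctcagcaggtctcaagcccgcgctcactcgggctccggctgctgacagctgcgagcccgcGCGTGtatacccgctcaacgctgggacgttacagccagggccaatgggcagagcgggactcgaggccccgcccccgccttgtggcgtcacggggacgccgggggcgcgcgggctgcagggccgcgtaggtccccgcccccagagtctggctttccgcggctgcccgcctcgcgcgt
HADHB promoter, shared with HADHA, chr2:26467557-26467806, plus strand: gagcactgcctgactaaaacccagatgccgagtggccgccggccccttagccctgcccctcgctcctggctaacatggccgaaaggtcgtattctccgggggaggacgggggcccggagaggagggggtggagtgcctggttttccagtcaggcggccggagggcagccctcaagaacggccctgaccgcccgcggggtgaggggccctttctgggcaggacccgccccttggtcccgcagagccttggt
The letters ACGTG and GCGTG, the core of the HIF site, were searched on both strands in the 9 promoters that have an entry in the promoter table used here, which leaves out ETFDH. Either was found in 5 of the 9, those of ACADVL, ACADM, ACADS, HADH and ACAA2, and in 58.6% of the promoters of 12167 tested genes. ACAA2 held 3 copies of GCGTG, at 129, 60 and 38 bases before the start. AGGTCA, which nuclear receptors such as PPARα recognize, was found in 0 of the 9 and in 7.98% of all promoters. A match is a description of these letters and not of binding.

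With an edgeR FDR under 0.05 as the threshold, 786-O-VHL showed a higher level for 6 of the 10 genes and a lower level for 2. CPT1A, ACAA2, ACADS, ACADVL, ACADM and HADHB rose, HADH and HADHA fell, and CPT2 and ETFDH did not pass the test. Over all 12335 genes tested, 64.5% passed this FDR, 32.6% as higher and 31.9% as lower, so that 8 of 10 is to be read against a background in which most genes were called. The median log2 fold change of the 10 genes was 0.29 and that of all genes tested was 0.02. HADH was the only one of the 10 called with a change of at least 2-fold, which 17.5% of all genes reached, and 0 of the 10 passed the study's threshold of over 4-fold with FDR under 0.01, which 4.46% of all genes passed. The CPM of the groups did not overlap for 9 of the 10 genes, the exception being ETFDH, and for 80% of all genes. Scaling by library totals in place of TMM moved the median of all genes from 0.02 to 0.15 and the split of all calls from 4017 higher and 3939 lower to 5077 higher and 3097 lower, while the count of the 10 genes stayed at 6 higher and 2 lower. Bulk libraries do not tell fewer cells expressing a gene from less RNA per cell. The exact permutation test of 2 libraries against 2 cannot give a two-sided p below 0.33, so the FDR values rest on the spread that edgeR shares between genes.

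**Figure D1:**
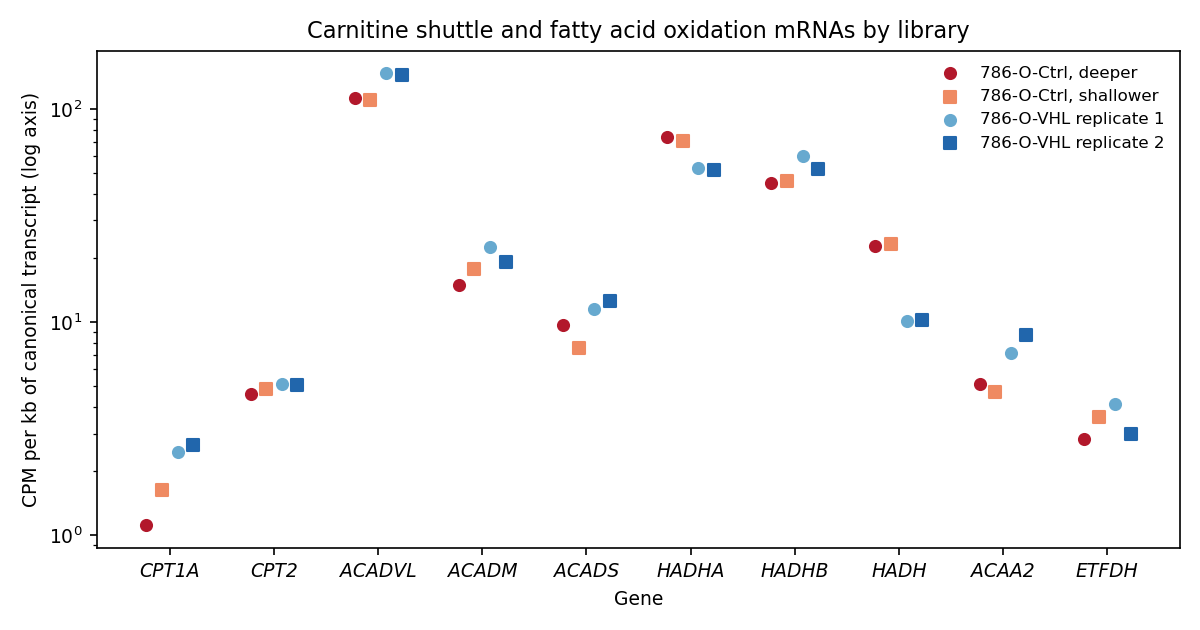
CPM per kb of canonical transcript (log axis) of the 10 genes in each library, with 786-O-Ctrl in red and orange and 786-O-VHL in light and dark blue. ACADVL was the most abundant in all 4 libraries, at 110 to 147, and CPT1A the least abundant, at 1.11 to 2.66.

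Per kilobase of the canonical transcript, the genes spanned a wide range in 786-O-Ctrl. ACADVL stood at 111 CPM per kb, followed by HADHA at 72.5, HADHB at 45.5, HADH at 23.0, ACADM at 16.3 and ACADS at 8.60 CPM per kb. ACAA2 at 4.92 and CPT2 at 4.73 CPM per kb overlapped between libraries, and ETFDH at 3.21 and CPT1A at 1.37 CPM per kb were lowest. In 786-O-VHL this order changed at 2 places. HADHB at 56.5 CPM per kb stood above HADHA at 52.4, although their libraries overlapped, and HADH at 10.2 CPM per kb stood below ACADM at 20.9 and ACADS at 12.0. The summed level of the 10 genes was 688 and 683 CPM in 786-O-Ctrl, against 749 and 720 CPM in 786-O-VHL.

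CPT1A (ENSG00000110090.13, GRCh37 chromosome 11, minus strand, from 68522088 to 68611878) encodes the liver form of CPT1, the step of the pathway that malonyl-CoA inhibits. Its reads numbered 123 and 128 in 786-O-Ctrl (deeper, then shallower) against 38 and 235 in 786-O-VHL (replicate 1, then 2), which gave 5.84, 8.51, 12.9 and 14.0 CPM in the same order. Both 786-O-VHL libraries were above both 786-O-Ctrl libraries, which themselves lay further apart than those of 786-O-VHL. The level rose from 7.17 ± 1.88 to 13.4 ± 0.753 CPM (SD, n = 2 each), with a log2 fold change of 0.96 and a standard error of 0.187 (edgeR FDR = 5.7e-05). This was a larger change than that of 80.6% of all genes tested. Without the deeper 786-O-Ctrl library the log2 fold change was 0.68. With all libraries thinned to the depth of the shallowest it was 0.50 and no longer passed (edgeR FDR = 0.156). That thinning was a random draw of counts that was not repeated, so the drop may be the noise of the draw.

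CPT2 (ENSG00000157184.7, plus strand of chromosome 1 from 53662464 to 53679869), the partner enzyme on the inner membrane, was at 12.4 and 13.2 CPM in 786-O-Ctrl and at 13.9 and 13.7 CPM in 786-O-VHL. The values were close in all libraries, with a log2 fold change of 0.11 and a 95% interval from -0.20 to 0.41 (edgeR FDR = 0.551). Within a library, the ratio of CPT1A to CPT2 counts was 0.471 and 0.646 in 786-O-Ctrl, against 0.927 and 1.02 in 786-O-VHL. Its 95% counting interval in the shallow 786-O-VHL replicate 1, from 0.58 to 1.48, reached below the value of the shallower 786-O-Ctrl library. Exons of CZIB on the opposite strand overlap those of CPT2. CZIB was at 37.1 and 32.6 CPM in 786-O-Ctrl and at 27.5 and 29.2 CPM in 786-O-VHL. Its log2 fold change was -0.28 (edgeR FDR = 0.0207), and the part of shared reads in the CPT2 value was not tested.

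The acyl-CoA dehydrogenases catalyze the first step of each round and differ in the chain length they accept. ACADVL (ENSG00000072778.20, plus strand of chromosome 17 from 7120444 to 7128585) acts on very long chains, ACADM (ENSG00000117054.13, plus strand of chromosome 1 from 76190116 to 76253260) on medium chains and ACADS (ENSG00000122971.9, plus strand of chromosome 12 from 121163577 to 121177811) on short chains. All 3 rose. ACADVL was at 245 and 240 CPM in 786-O-Ctrl and at 321 and 316 CPM in 786-O-VHL. The gap between the groups was wide beside the spread within them, with a log2 fold change of 0.39 and a standard error of 0.0616 (edgeR FDR = 3.35e-06). ACADS was at 17.9 and 14.0 CPM in 786-O-Ctrl and at 21.4 and 23.4 CPM in 786-O-VHL. Its log2 fold change was 0.50 with a standard error of 0.135 (edgeR FDR = 0.00183), and the call was lost without the shallower 786-O-Ctrl library (0.34, edgeR FDR = 0.108) and without 786-O-VHL replicate 2 (0.40, edgeR FDR = 0.159). ACADM was at 33.7 and 40.1 CPM in 786-O-Ctrl and at 50.9 and 43.5 CPM in 786-O-VHL. The lower 786-O-VHL library was near the higher 786-O-Ctrl library, and the log2 fold change of 0.31 with a standard error of 0.1 (edgeR FDR = 0.00902) was 0.19 without the deeper 786-O-Ctrl library (edgeR FDR = 0.253). With DESeq2, the tool of the study, neither ACADS nor ACADM passed, at adjusted p values of 0.0532 and 0.0843.

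Exons of DLG4 on the opposite strand overlap those of ACADVL, and the use of strand in counting is not given in the sources used here. DLG4, a postsynaptic scaffold gene, was at 24.1 and 24.1 CPM in 786-O-Ctrl and at 76.3 and 69.3 CPM in 786-O-VHL, which gave a log2 fold change of 1.56 with a standard error of 0.0887 (edgeR FDR = 6.34e-15). It moved in the same direction as ACADVL, and the part of shared reads in the ACADVL value was not tested. The last exons of ACADM overlap RABGGTB on the same strand, which was between 50.6 and 58.4 CPM in all libraries with overlapping groups.

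**Figure D2:**
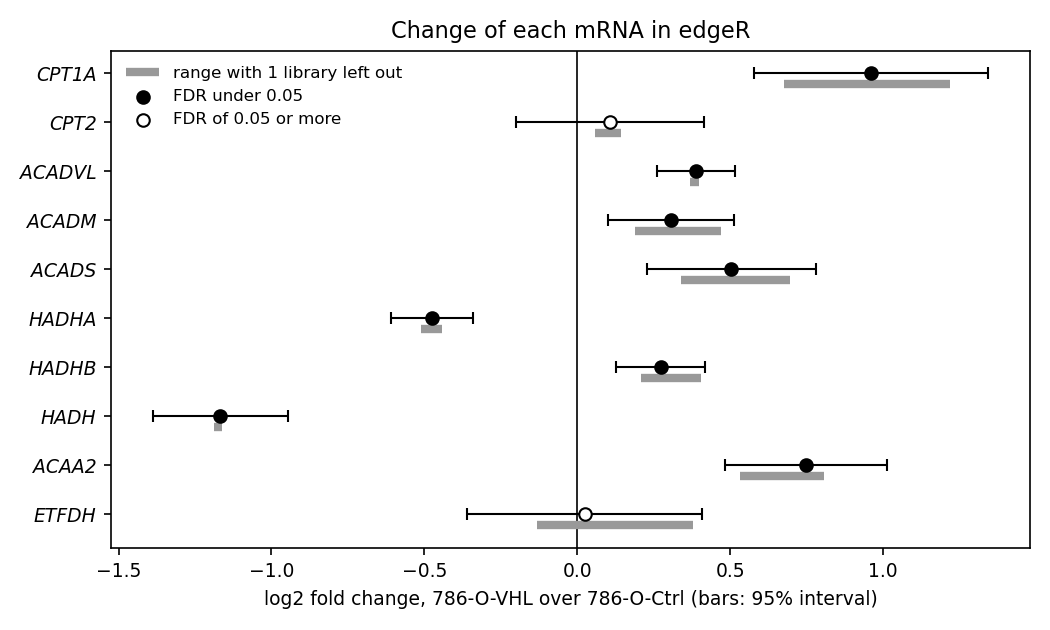
Log2 fold change of each gene in 786-O-VHL over 786-O-Ctrl with its 95% interval (black) and the range when 1 library is left out (gray), filled where the edgeR FDR was under 0.05. HADH at -1.17 and HADHA at -0.48 lie left of 0, CPT1A at 0.96 is farthest to the right, and only the leave-out range of ETFDH crosses 0.

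HADHA and HADHB form the mitochondrial trifunctional protein, in which HADHA carries the hydratase and the long-chain hydroxyacyl-CoA dehydrogenase and HADHB the thiolase. The mRNAs of the subunits moved in opposite directions. HADHA (ENSG00000084754.12, minus strand of chromosome 2 from 26413504 to 26467540) was at 219 and 208 CPM in 786-O-Ctrl and at 156 and 152 CPM in 786-O-VHL. Its level fell by 28.1%, a log2 fold change of -0.48 with a standard error of 0.0649 (edgeR FDR = 3.03e-07). HADHB (ENSG00000138029.14, plus strand of chromosome 2 from 26466038 to 26513333) was at 89.9 and 91.9 CPM in 786-O-Ctrl and at 121 and 105 CPM in 786-O-VHL. It rose by 20.8%, a log2 fold change of 0.27 with a standard error of 0.0712 (edgeR FDR = 0.00151). For both genes the groups did not overlap, and both calls held when any 1 library was left out, with HADHA between -0.51 and -0.44 and HADHB between 0.21 and 0.41.

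The ratio of HADHA to HADHB counts does not depend on the scaling between libraries. It was 2.43 and 2.27 in 786-O-Ctrl, against 1.29 and 1.45 in 786-O-VHL, with 95% counting intervals of 2.30 to 2.57, 2.13 to 2.42, 1.13 to 1.49 and 1.36 to 1.54. The intervals of the 786-O-Ctrl libraries lay above those of the 786-O-VHL libraries. Per transcript length the ratio was 1.65 and 1.54 in 786-O-Ctrl, against 0.879 and 0.984 in 786-O-VHL. The annotation holds the processed pseudogenes HADHAP1 and HADHAP2 of HADHA and HADHBP1 of HADHB, as well as ACAA2P1 of ACAA2, and how reads that match a gene and its copy were counted is not given in the sources used here.

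HADH (ENSG00000138796.16, plus strand of chromosome 4 from 108910870 to 108956397) encodes the hydroxyacyl-CoA dehydrogenase for shorter chains, a separate matrix enzyme. It was at 41.2 and 41.9 CPM in 786-O-Ctrl and at 18.3 and 18.5 CPM in 786-O-VHL. The libraries of each group were nearly equal and the groups far apart, and the level fell by 55.5%, a log2 fold change of -1.17 with a standard error of 0.107 (edgeR FDR = 1.84e-10). This change was larger than that of 86.1% of all genes tested, and it stayed between -1.19 and -1.16 when any 1 library was left out. The fall was steeper than that of HADHA. The ratio of HADH to HADHA counts was 0.188 and 0.201 in 786-O-Ctrl, against 0.117 and 0.122 in 786-O-VHL, with counting intervals that did not overlap between the groups. An antisense lncRNA, CYP2U1-AS1, starts 10 bases from the HADH start and overlaps its exons, and it is not among the genes of the count table.

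ACAA2 (ENSG00000167315.18, minus strand of chromosome 18 from 47308534 to 47340323) encodes a matrix ketoacyl-CoA thiolase, which carries out the last step of a round. It was at 15.1 and 13.8 CPM in 786-O-Ctrl and at 21.0 and 25.4 CPM in 786-O-VHL. The groups did not overlap, and the level rose 1.68-fold, a log2 fold change of 0.75 with a standard error of 0.129 (edgeR FDR = 1.17e-05). With the libraries thinned to the shallowest it was 0.50 and just missed the threshold (edgeR FDR = 0.0565).

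**Figure D3:**
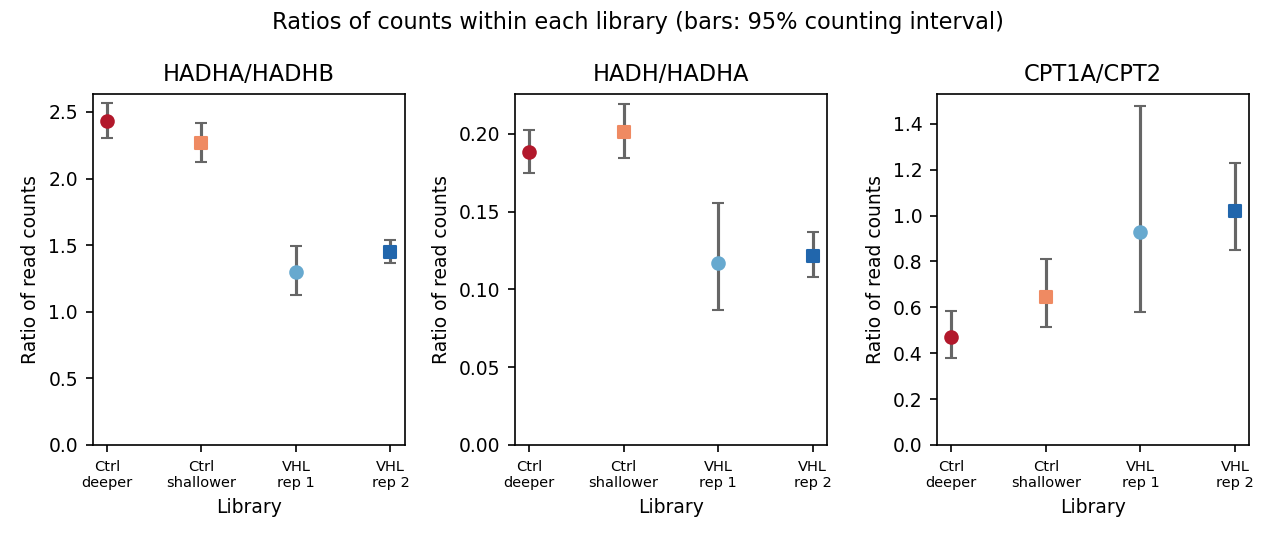
Ratio of read counts of HADHA to HADHB, HADH to HADHA and CPT1A to CPT2 in each library (points) with 95% counting intervals (bars), each axis starting at 0. HADHA to HADHB falls from 2.43 and 2.27 in 786-O-Ctrl to 1.29 and 1.45 in 786-O-VHL, while CPT1A to CPT2 is higher in both 786-O-VHL libraries, with a wide interval in replicate 1.

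ETFDH (ENSG00000171503.11, plus strand of chromosome 4 from 159593120 to 159631894) passes the electrons of the acyl-CoA dehydrogenases on to ubiquinone. It was at 8.83 and 11.2 CPM in 786-O-Ctrl and at 12.9 and 9.26 CPM in 786-O-VHL, and the groups overlapped. The log2 fold change was 0.02 with a 95% interval from -0.36 to 0.41 (edgeR FDR = 0.922), and its sign turned to -0.13 without the deeper 786-O-Ctrl library and to -0.09 without 786-O-VHL replicate 1. The counts were low, with 38 in 786-O-VHL replicate 1. C4orf46, which starts in the opposite direction near ETFDH and shares exon sequence with it, fell from 22.9 and 23.2 CPM to 11.2 and 13.0 CPM, a log2 fold change of -0.87 (edgeR FDR = 2.12e-06). PPID, a cyclophilin gene on the opposite strand that overlaps the end of ETFDH, also fell, with a log2 fold change of -0.59 (edgeR FDR = 8.17e-05). Upstream of ETFDH, the subunits of the electron transfer flavoprotein were at 113 ± 2.42 and 121 ± 8.47 CPM (SD, n = 2 each) for ETFA, with a log2 fold change of 0.13 (edgeR FDR = 0.0962), and at 16.5 ± 0.553 and 20.2 ± 0.7 CPM (SD, n = 2 each) for ETFB, with a log2 fold change of 0.31 (edgeR FDR = 0.0339). The ETFB call was lost under 5 of 11 alternatives.

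The rest of the pathway was followed through 7 lists, of which 81 of 100 genes were tested. Of these, 31 were higher, 22 were lower and 28 did not pass, with a median log2 fold change of 0.11. As shares of the genes tested, all genes gave the 32.6% higher and 31.9% lower noted above. With library totals in place of TMM, the 81 genes gave 40 higher and 17 lower.

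Of 11 genes of fatty acid uptake, binding and activation, 2 were higher and 5 were lower, with a median of -0.28. FABP5, a fatty acid binding protein, fell from 71.3 ± 4.08 to 29.6 ± 0.815 CPM (SD, n = 2 each), with a log2 fold change of -1.29 (edgeR FDR = 3.22e-13). DBI, the acyl-CoA binding protein, fell from 167 ± 4.15 to 81.8 ± 9.48 CPM (SD, n = 2 each), with a log2 fold change of -1.08. The long-chain acyl-CoA synthetase ACSL1 fell by 0.76 on the log2 scale. Its more abundant family members ACSL3 and ACSL4 also fell, by 0.58 and 0.28 on the log2 scale. ACSL3 went from 170 to 114 CPM and ACSL4 from 172 to 140 CPM. The ACSL4 call was lost with library totals (edgeR FDR = 0.0587). ACSL5, another family member, rose by 1.44, from 4.48 ± 0.787 to 11.5 ± 2.37 CPM (SD, n = 2 each, edgeR FDR = 3.88e-07). SLC27A1, a fatty acid transport protein, had a log2 fold change of 0.44 (edgeR FDR = 0.00275), and the call was lost with the libraries thinned to the shallowest (0.39, edgeR FDR = 0.105).

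Among the other carnitine genes, 2 of 7 were higher and 2 were lower, with a median of 0.30. CPT1B, the muscle form of CPT1, was between 0.712 and 1.36 CPM in all libraries and the groups overlapped (edgeR FDR = 0.751). CPT1A was thus the more abundant of these forms per length as well as in CPM. SLC25A20, the carnitine-acylcarnitine carrier, was at 11.1 and 9.64 CPM in 786-O-Ctrl and at 6.78 and 14.8 CPM in 786-O-VHL. Its 786-O-VHL libraries lay on either side of the 786-O-Ctrl libraries, and the log2 fold change of 0.31 (edgeR FDR = 0.145) turned to -0.63 without 786-O-VHL replicate 2. The carnitine importer SLC22A5 rose by 0.66 on the log2 scale (edgeR FDR = 6.31e-05), a call that was lost without 786-O-VHL replicate 2, at 0.46 (edgeR FDR = 0.0793), and with the libraries thinned to the shallowest, at 0.33 (edgeR FDR = 0.214). ALDH9A1, of carnitine synthesis, rose by 0.39. The peroxisomal acyltransferase CROT fell by 0.76 and the acetyltransferase CRAT fell by 0.26 on the log2 scale, and the CRAT call was lost with library totals (edgeR FDR = 0.112) and with thinned libraries (edgeR FDR = 0.0627).

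Genes of malonyl-CoA turnover and the subunits of AMPK gave 5 higher and 3 lower of 10, with a median of 0.16. ACACB, the acetyl-CoA carboxylase at the outer mitochondrial membrane, was at 12.2 and 10.4 CPM in 786-O-Ctrl and at 3.39 and 3.98 CPM in 786-O-VHL, which gave a log2 fold change of -1.55 with a standard error of 0.211 (edgeR FDR = 2.97e-07). ACACA, the cytosolic form, had 96 and 59 counts in 786-O-Ctrl, against 2 and 39 counts in 786-O-VHL, which gave a log2 fold change of -1.08 (edgeR FDR = 0.00457) that did not pass with DESeq2 or without the deeper 786-O-Ctrl library, and that moved to -2.64 without 786-O-VHL replicate 2. It could be tested under 9 of the 11 alternatives. MLYCD, which degrades malonyl-CoA, was at 9.67 ± 1.17 and 10.6 ± 0.122 CPM (SD, n = 2 each, edgeR FDR = 0.53). PRKAA2, a catalytic AMPK subunit, rose by 0.90 and PRKAB2, a regulatory AMPK subunit, by 0.76 on the log2 scale. ACSF3, a mitochondrial malonyl-CoA synthetase, rose by 0.85, while PRKAG2 fell by 0.54 on the log2 scale. The mean of PRKAA2 was 8.11 CPM in 786-O-Ctrl and 15.1 CPM in 786-O-VHL. PRKAA1, the other catalytic subunit, was far more abundant, at 151 CPM in 786-O-Ctrl and 172 CPM in 786-O-VHL. Its log2 fold change was 0.18 (edgeR FDR = 0.015), and the call was lost with DESeq2.

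Of 19 further mitochondrial genes, 9 were higher and 4 were lower, with a median of 0.13. PCCA, a subunit of propionyl-CoA carboxylase that handles the end of odd chains, rose from 13.5 ± 0.393 to 31.1 ± 2.52 CPM (SD, n = 2 each), with a log2 fold change of 1.17 (edgeR FDR = 2.56e-09). DECR1 and ECI1, which act on unsaturated chains, rose by 0.66 and 0.48. ECI2, which also acts on unsaturated chains, was among the genes that fell. ACAT1, ACAD9 and ECI2 fell by 0.48, 0.47 and 0.42 on the log2 scale, and the ACAD9 call was lost without 786-O-VHL replicate 2 (-0.32, edgeR FDR = 0.0585).

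In peroxisomal oxidation, 4 of 13 genes were higher and 4 were lower, with a median of 0.07. EHHADH, the peroxisomal bifunctional enzyme, and PHYH, of phytanic acid oxidation, rose by 0.72 and 0.71. ACOX3, an oxidase of branched chains, fell from 32.7 ± 1.51 to 15.5 ± 1.72 CPM (SD, n = 2 each), with a log2 fold change of -1.01 (edgeR FDR = 2.29e-08). ABCD3 fell by 0.38 and SCP2 by 0.28 on the log2 scale, the latter losing its call under 5 of 11 alternatives.

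Regulators of fatty acid oxidation gave 7 higher and 3 lower of 18, with a median of 0.16. PPARGC1A, the coactivator PGC-1α, had 9 and 15 counts in 786-O-Ctrl, against 24 and 87 counts in 786-O-VHL, or 0.427, 0.997, 8.14 and 5.17 CPM. Its log2 fold change was 3.12, and it ranged from 2.58 to 3.79 when any 1 library was left out. ESRRG, an orphan nuclear receptor, had 13 and 2 counts in 786-O-Ctrl, against 7 and 42 counts in 786-O-VHL, which gave a log2 fold change of 2.56 that ranged from 1.98 to 4.10 when any 1 library was left out. Both were among the least abundant genes of the list and passed the filter on low counts only through 786-O-VHL, where they were high, so their calls are no support for a difference. Neither passed the filter of at least 10 counts in every library, under which 5 regulators were higher, and ESRRG was also not tested with thinned libraries. PPARGC1B, a related coactivator, was at 6.20 ± 0.304 and 7.39 ± 1.05 CPM (SD, n = 2 each), with a log2 fold change of 0.16 (edgeR FDR = 0.506). PPARA, the nuclear receptor that drives fatty acid oxidation genes, was at 50.4 and 49.4 CPM in 786-O-Ctrl and at 57.0 and 71.1 CPM in 786-O-VHL. Its log2 fold change of 0.43 (edgeR FDR = 5.24e-05) rested on 786-O-VHL replicate 2, without which it was 0.18 (edgeR FDR = 0.23). The deacetylase SIRT1 rose by 0.93. LPIN1, a coactivator and phosphatidate phosphatase, TFAM, which packages mitochondrial DNA, and PPRC1, a PGC-1-related coactivator, fell by 0.68, 0.38 and 0.29 on the log2 scale, and the PPRC1 call was lost with thinned libraries (edgeR FDR = 0.103).

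**Figure D4:**
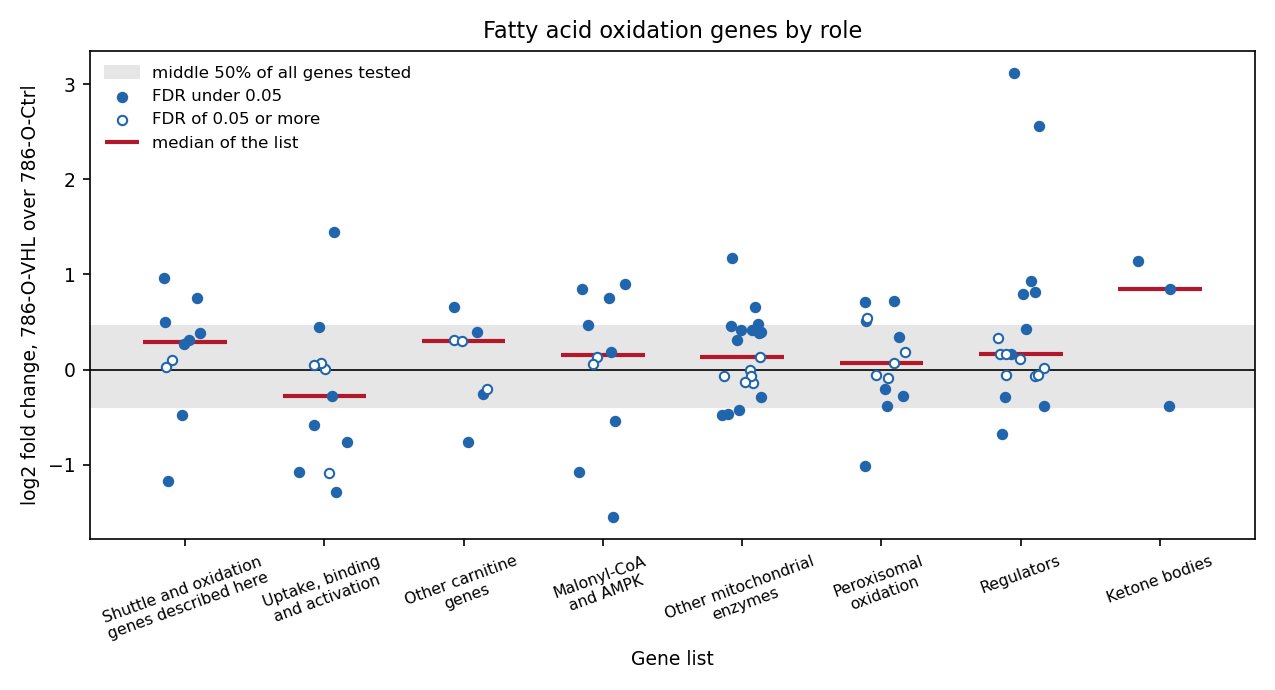
Log2 fold change of each tested gene in 786-O-VHL over 786-O-Ctrl, by list, with the median of each list (red line) and the middle 50% of all genes tested (gray band, from -0.40 to 0.46). All list medians except that of 3 ketone body genes lie inside the band. PPARGC1A at 3.12 and ESRRG at 2.56 lie highest among the regulators, but both passed the filter on low counts only through 786-O-VHL.

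Genes of ketone bodies, which are made from the acetyl-CoA of oxidation, could be tested for 3 of 6. BDH2, a short-chain dehydrogenase, rose by 1.14 on the log2 scale, and OXCT1, which activates ketone bodies for use, fell by 0.38 on the log2 scale.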

How the data were processed

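Duplicate RNA samples of each subline were used, and the authors sequenced Illumina libraries and aligned the reads to hg19. The submitters' processing notes name STAR and CASAVA without versions. The deposited table holds raw counts per gene, without normalization, and which tool, strand setting and gene annotation produced them is not given in the sources used here. Both 786-O-Ctrl columns carry the same replicate number and were used as replicates without a number.

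Differences were tested on the counts by edgeR 4.0.16 under R 4.3.3 (filterByExpr at a minimum count of 10, TMM, quasi-likelihood F test, Benjamini-Hochberg adjustment over 12335 genes). Standard errors are those implied by the F statistic. Totals of 2807779 to 22141263 counts per library limit the precision of low genes. Ratio intervals are exact binomial (Clopper-Pearson). Positions, transcript lengths and starts are from GENCODE 44 on GRCh37, and promoter sequences from the GRCh37 genome.

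The genes and lists were chosen with earlier results of these data known. Named are all 10 genes, their partners CPT1B, SLC25A20, ETFA, ETFB, PPARA, PPARGC1A and PPARGC1B (CPT1C is not among the genes of the count table), genes that overlap them or start opposite to them, and from each list up to 3 per direction with the largest change at FDR under 0.05. MLYCD, PRKAA1, ACSL3 and ACSL4 were named after their values were seen. Some genes that this rule names are not reported here. The scripts were tested on simulated data. The alternatives were DESeq2 1.42.0, limma-voom (limma 3.58.1), RLE scaling, library totals alone, no filter, at least 10 counts in every library, thinning to the shallowest library, and each library left out in turn. The thinning was a random draw of counts that was not repeated.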

Additional observations from a re-analysis of the deposited data

How the results depend on the processing

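The counts of 6 higher and 2 lower genes were obtained again with RLE scaling, library totals, limma-voom, no filter and at least 10 counts in every library. HADH, HADHA, ACADVL and HADHB kept their call and direction under all 11 alternatives. With the libraries thinned to the shallowest, 3 genes were higher and 2 were lower, with the calls of CPT1A, ACADS and ACAA2 lost, and fewer counts remain there by construction. With DESeq2, 4 were higher and 2 were lower. The median log2 fold change of the 10 genes was 0.42 with library totals alone, where the median of all genes was 0.15. With 1 library left out at a time it ranged from 0.23 to 0.40, the highest being without 786-O-VHL replicate 2. ETFDH, which was not called, reversed to -0.13 without the deeper 786-O-Ctrl library and to -0.09 without 786-O-VHL replicate 1, and was 0.38 without 786-O-VHL replicate 2. The causes of these shifts were not tested. No paired analysis was possible because both 786-O-Ctrl columns carry the same replicate number. The depth of 786-O-VHL replicate 1, where CPT1A had 38 counts, limits genes with few counts.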
